A study of Mus musculus with 7 samples.

Results

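The genes described here encode the core of insulin and insulin-like growth factor (IGF) signalling: the receptors Insr and Igf1r, the adaptors Irs1 and Irs2, the PI3-kinase subunits Pik3ca and Pik3r1, the kinases Akt1 and Akt2, the transcription factor Foxo1 and the phosphatase Ptpn11. They were listed by name for their place in the pathway, with earlier results of these data known, and all 10 were found among the 21899 genes of the count files. The counts come from pancreatic islets of second-generation (F2) male mice. In the AE-F2 group, which the labels call hyperandrogenism, the founder dams had been injected with dihydrotestosterone dissolved in benzyl benzoate and corn oil during late pregnancy, and in the control-F2 group the founder dams had been injected with the same oil mixture alone. In both groups the mice were C57BL/6J, and F1 sons were mated with unrelated wild-type females to give the F2 males, so that the F2 males themselves received no androgen. Islets were freed with collagenase, picked by hand and kept in culture medium. The ages of the animals, and whether 1 library came from 1 animal or from pooled animals, are not given in the sources used here.

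The labels name 3 control-F2 and 4 AE-F2 samples. The values below are those of replicate 1 of control-F2 and replicate 4 of AE-F2, 1 library each, and the names control-F2 and AE-F2 stand for these libraries from here on. The other 5 samples were not analysed here. Total counts were 16285888 for control-F2 and 21278513 for AE-F2. With 1 library per group the conditions could not be tested, and no difference below has a replicate check. Levels are given in CPM, the usual count rate per library size, with TMM scaling, which sets the bulk of genes equal between libraries. The log2 ratio is AE-F2 over control-F2, with 0.5 counts added, and each interval is a 95% interval that covers counting error only. Across the 13627 genes compared, those averaging 10 counts or more, the median log2 ratio was 0.00. The islet label was borne out by the markers, with Ins1 and Ins2 taking 17.7% of all counts for control-F2 and 17.5% for AE-F2.

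When insulin or an IGF binds its receptor, the receptor phosphorylates the adaptors IRS1 and IRS2, which then dock PI3-kinase. The lipid it makes recruits AKT to the membrane, and AKT phosphorylates FOXO1 and so keeps it out of the nucleus. In β-cells this cascade supports growth, survival and insulin production, and IRS2 in particular is known to be needed for keeping β-cell mass. Irs2 transcription is known to respond to cyclic AMP and to FOXO1, and its mRNA is short-lived.

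Irs1 and Irs2 were both lower in AE-F2, and the remaining 8 genes lay close to equality. Irs2 stood 2.0-fold lower and Irs1 1.37-fold lower, whereas the log2 ratios of the other 8 ran from -0.08 to 0.14. Of the 10 genes, 7 had a ratio below equality and 3 above it, with a median log2 ratio of -0.06. Past a threshold of 1.2-fold there were 2 lower genes and 0 higher genes among the 10, and over all genes 9.53% were lower and 13.9% were higher past that threshold. Past 1.5-fold, Irs2 was the 1 lower member (2.19% of all genes lower, 6.04% higher), and past 2-fold there was none in either direction (0.653% and 3.16%). The counting interval lay below equality for 3 of the 10 (Irs1, Irs2 and Ptpn11) and above it for 1 (Foxo1), beside 13.4% of all genes below and 13.4% above.

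**Figure D1:**
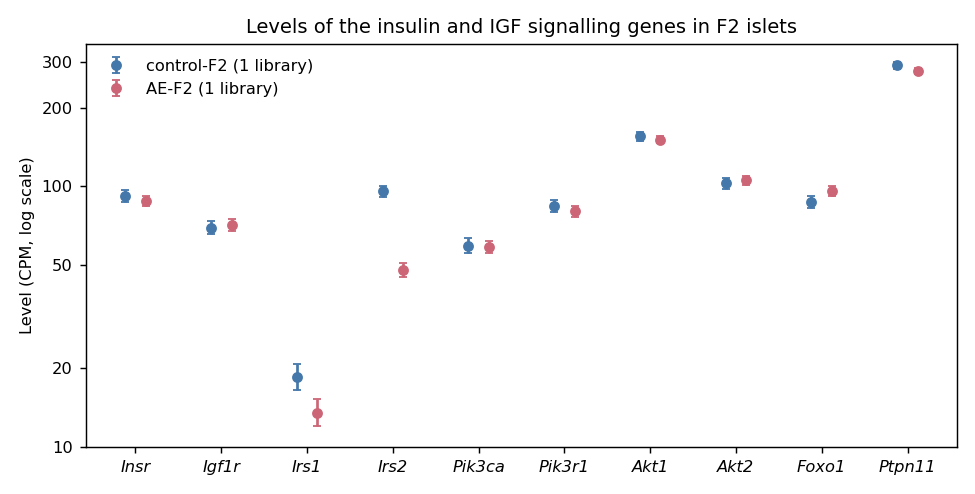
Level of each of the 10 genes in CPM (log scale) in control-F2 (blue) and AE-F2 (red), 1 library each, with 95% Poisson intervals of the counts as bars. The points of Irs1 and Irs2 are clear of each other, with 95.7 against 47.9 CPM for Irs2, while the points of the receptors, PI3-kinase subunits and AKT kinases lie side by side.

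The start regions of both adaptor genes are shown because these are the members that were lower together. The sequences are from RefSeq on GRCm38.p6 and run from 250 bases before to 50 bases after the annotated start, on the strand of the gene. Irs1 lies at chr1:82291390-82291689 on the minus strand and Irs2 at chr8:11008880-11009179 on the minus strand. Capitals mark the longest runs of bases that the 2 windows have in common.
Irs1: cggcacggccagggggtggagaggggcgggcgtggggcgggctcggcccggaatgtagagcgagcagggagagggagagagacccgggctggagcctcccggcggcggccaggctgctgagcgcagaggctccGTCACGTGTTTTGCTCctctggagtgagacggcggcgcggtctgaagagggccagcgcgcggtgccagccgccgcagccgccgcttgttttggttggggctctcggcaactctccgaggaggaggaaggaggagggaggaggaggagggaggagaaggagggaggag
Irs2: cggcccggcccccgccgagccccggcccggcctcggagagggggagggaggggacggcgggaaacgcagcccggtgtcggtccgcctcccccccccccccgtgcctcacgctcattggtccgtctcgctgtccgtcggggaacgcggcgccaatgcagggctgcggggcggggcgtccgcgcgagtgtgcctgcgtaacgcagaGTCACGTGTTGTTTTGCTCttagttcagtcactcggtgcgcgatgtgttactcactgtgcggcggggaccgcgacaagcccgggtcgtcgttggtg

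The windows share 2 runs of 10 bases, GTCACGTGTT and TGTTTTGCTC, which overlap each other in both windows. With the first transcribed base as 0, they begin at -117 and -111 in Irs1 and at -46 and -37 in Irs2. Each run was found, on either strand, in 25 of 32851 promoter windows of the same length (0.0761%), and both together in 2 windows, those of Irs1 and Irs2 from which the runs were taken. The first run holds the palindrome CACGTG, an E-box, which is present in 7.15% of all windows and among the 14 windows of the members only in these 2. The CRE half-site TGACG, searched on both strands, is the letters bound by cyclic AMP response factors. It occurs once in the Irs1 window, overlapping the E-box, and not in the Irs2 window, and 20.8% of all windows hold it. Of the letters that FOXO factors bind, only TGTTTAC was searched, on both strands. It is in neither window and in 3.65% of all windows. Other forms of the FOXO site were not searched, so their presence in the windows or in the shared runs is not known here. The Irs1 window had 71.3% G and C with 28 CG pairs and the Irs2 window 72.0% with 41 CG pairs, beside medians of 52.7% and 7 over all windows. The motifs and runs were looked for after the counts were seen, and a match describes the letters only. Of the 10 genes, 9 had a window in the table, and Insr had none.

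Irs2 (ENSMUSG00000038894) had 1560 counts in control-F2 and 1017 in AE-F2, although AE-F2 was the deeper library. This is 95.7 CPM (interval 91.0 to 100.5) and 47.9 CPM (45.0 to 50.9), which gives a log2 ratio of -0.999 (interval -1.11 to -0.88). Of all genes compared, 0.66% had a log2 ratio as low or lower, and among 3471 genes averaging 1000 counts or more 11 did, Irs2 included. In no scaling or correction tried did the log2 ratio of Irs2 come nearer to 0 than -0.917.

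Irs1 (ENSMUSG00000055980), which encodes the first IRS protein to be described, was the least abundant member, with 303 counts in control-F2 and 288 in AE-F2. Its level was 18.6 CPM (16.6 to 20.8) in control-F2 and 13.6 CPM (12.03 to 15.21) in AE-F2, and the intervals did not overlap. The log2 ratio was -0.46 (interval -0.69 to -0.22), so the counting error allows a decrease between 1.16-fold and 1.62-fold. Among 10540 genes averaging 100 counts or more, 151 (1.43%) were as low or lower. Exons of Irs1 overlap by 2822 of 9144 bases with Gm9747, annotated on the opposite strand. Those of Irs2 overlap by 162 of 6323 bases with 9530052E02Rik, also on the opposite strand. Neither Gm9747 nor 9530052E02Rik is among the genes of the count files. The methods do not say that counting used strand, so that reads of these overlaps cannot be told apart.

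Since Irs2 was lower by more than Irs1, the make-up of the adaptor pool also differed between the libraries. Irs1 held 16.3% of the summed Irs1 and Irs2 counts in control-F2 (95% Clopper-Pearson interval 14.6 to 18.0) and 22.1% in AE-F2 (19.8 to 24.4). The odds of a count being Irs1 and not Irs2 were 1.46 times higher in AE-F2 (exact interval 1.21 to 1.75). This ratio is taken within each library and does not depend on the scaling between them. The shares themselves are of counts not divided by gene length, so they are not shares of transcripts. Summed over both adaptors, the level went from 114.2 CPM in control-F2 to 61.4 CPM in AE-F2, a log2 ratio of -0.895 (-0.999 to -0.793).

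The receptor genes lay close to equality. Insr (ENSMUSG00000005534), which encodes the insulin receptor, had 1495 counts in control-F2 and 1861 in AE-F2, or 91.7 and 87.6 CPM. Its log2 ratio was -0.07 (interval -0.16 to 0.03). Igf1r (ENSMUSG00000005533), the receptor for IGF-1, had 1130 and 1508 counts, which is 69.3 CPM in control-F2 and 71.0 CPM in AE-F2 (log2 ratio 0.03, interval -0.08 to 0.15). At this depth a difference was not detectable for either. Insr made up 57.0% of the summed receptor counts in control-F2 (55.0 to 58.9) and 55.2% in AE-F2 (53.5 to 56.9).

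Set against the receptors, the adaptors were fewer in AE-F2. There were 0.71 counts of Irs1 and Irs2 for each count of Insr and Igf1r in control-F2 and 0.387 in AE-F2, an odds ratio of 0.546 (exact interval 0.5 to 0.596). Against Akt1 and Akt2 the figures were 0.442 and 0.24, with an odds ratio of 0.542 (0.499 to 0.588). Both of these ratios were formed after the values of Irs1 and Irs2 were seen. The counts in them were not divided by gene length, so the figures for each library are not numbers of transcripts. The ratio of Akt1 to Akt2 and that of Pik3ca to Pik3r1 had intervals that included 1, with odds ratios of 0.946 (0.871 to 1.03) and 1.03 (0.924 to 1.16).

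**Figure D2:**
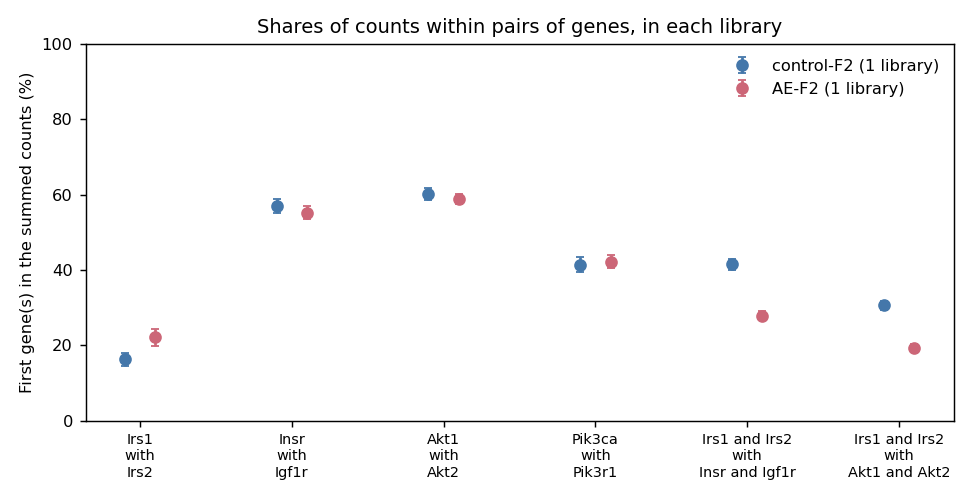
Percentage of the summed counts of a pair that belongs to the gene or genes named first, in control-F2 (blue) and AE-F2 (red), with 95% Clopper-Pearson intervals as bars. The Irs1 share of the adaptors goes from 16.3% to 22.1% and the adaptor share of adaptors plus receptors from 41.5% to 27.9%, while the receptor, AKT and PI3-kinase pairs have overlapping intervals.

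Pik3ca (ENSMUSG00000027665) encodes the catalytic subunit p110α of PI3-kinase, and Pik3r1 (ENSMUSG00000041417) encodes its regulatory subunit p85α, which binds the phosphorylated adaptors. Pik3ca had 965 counts in control-F2 and 1241 in AE-F2, 59.2 and 58.4 CPM, with a log2 ratio of -0.02 (-0.14 to 0.10). Pik3r1 had 1367 and 1701 counts, or 83.8 CPM in control-F2 and 80.1 CPM in AE-F2, with a log2 ratio of -0.07 (-0.17 to 0.04). Neither gene differed by more than its counting error.

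The AKT kinases were close to equality as well. Akt1 (ENSMUSG00000001729) had 2536 counts in control-F2 and 3206 in AE-F2, a log2 ratio of -0.04 (-0.12 to 0.03). Akt2 (ENSMUSG00000004056), the isoform best known for its part in glucose uptake, had 1675 and 2239 counts, a log2 ratio of 0.04 (-0.06 to 0.13).

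Foxo1 (ENSMUSG00000044167) was the one member with a counting interval above equality. It had 1416 counts in control-F2 and 2037 in AE-F2, 86.8 and 95.9 CPM, with a log2 ratio of 0.14 (0.04 to 0.24). That is 1.10-fold, under the 1.2-fold threshold, and 76.6% of all genes had a log2 ratio as low or lower. An antisense gene, Gm20402, overlaps 674 of the 8665 exon bases of Foxo1 and is not among the genes of the count files. Ptpn11 (ENSMUSG00000043733) encodes SHP2, a phosphatase that binds IRS proteins and passes receptor signals to RAS. It had 4735 counts in control-F2 and 5854 in AE-F2, 290.3 and 275.5 CPM. Its log2 ratio of -0.08 (-0.13 to -0.02) did not include equality, and its size was 1.05-fold. With trends of GC content and length removed the log2 ratio was -0.032, a shift that carries the interval across equality and leaves 2 members below it.

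**Figure D3:**
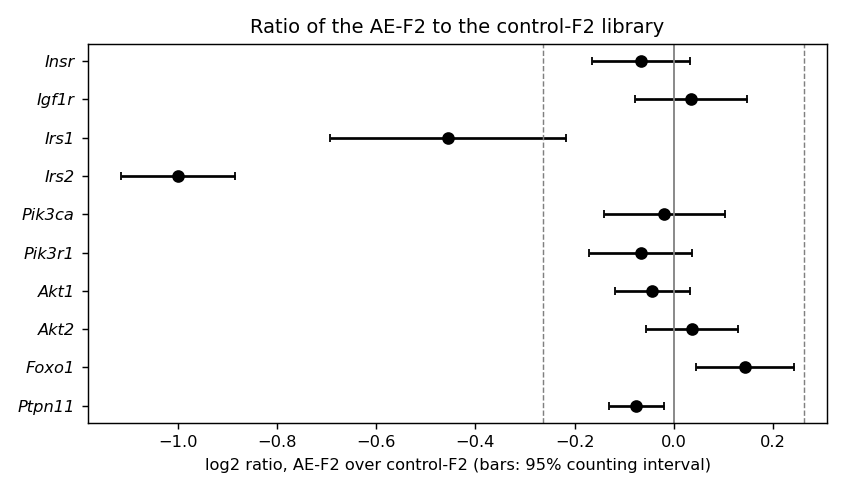
Log2 ratio of the AE-F2 over control-F2 for each of the 10 genes, with 95% counting intervals as bars, a solid line at equality and dashed lines at 1.2-fold. Irs2 at -0.999 and Irs1 at -0.46 lie beyond the lower dashed line, and the other 8 lie between the dashed lines.

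**Figure D4:**
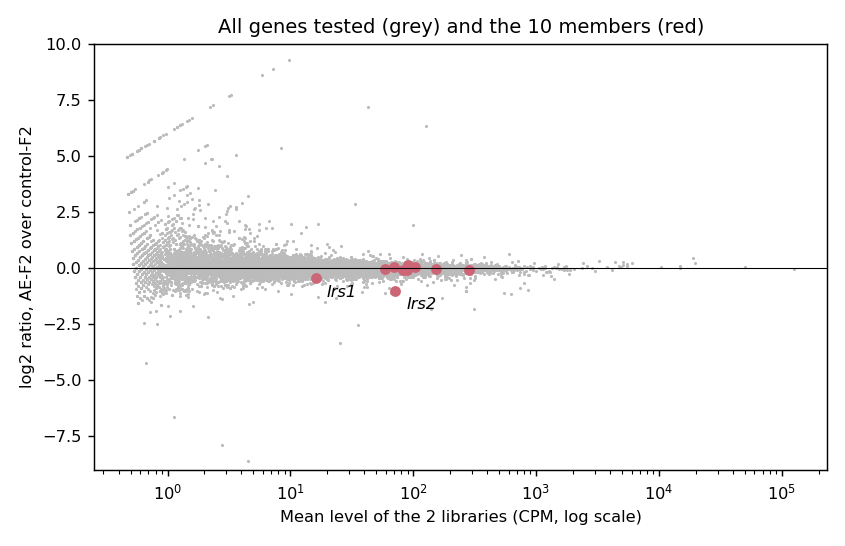
Log2 ratio of the AE-F2 over control-F2 against the mean CPM of both libraries (log scale), 1 grey point for each of the 13627 genes and red points for the 10 members. Irs2 lies below the band of genes of its level, Irs1 at its lower edge and the other 8 members within it.

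Levels of different genes can be set side by side only per length. Divided by the length of all annotated exons of each gene, Ptpn11 and Akt1 were the highest members in both libraries, at 38.8 and 37.9 CPM per kilobase in control-F2. Irs1 was the lowest in both, at 2.03 CPM per kilobase in control-F2 and 1.48 in AE-F2, and Igf1r the next lowest, at 4.13 and 4.23. Irs1 and Igf1r stayed in these places when the longest or the median protein-coding transcript was used as the length. Ptpn11 was number 2 in both libraries with the longest transcript, and number 3 with the median transcript, behind Akt1 and Akt2 (52.2 CPM per kilobase against 141.0 and 91.3 in control-F2). Irs2 had 15.1 CPM per kilobase in control-F2, number 3 among the 10 and next to Akt2 at 14.4, and 7.57 in AE-F2, number 6 among the 10 and next to Pik3r1 at 7.94. With the longest transcript Irs2 was number 4 in control-F2 and number 7 in AE-F2, and with the median transcript number 6 and number 8. By all of these lengths Irs2 exceeded Irs1 in both libraries.

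The rest of the pathway was described with 10 lists of genes ordered by role. Of 115 genes on these lists that are not members, 106 averaged 10 counts or more, and their median log2 ratio was -0.03. Past 1.2-fold, 13 of them (12.3%) were lower and 10 (9.43%) were higher, against 9.53% lower and 13.9% higher over all genes.

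**Figure D5:**
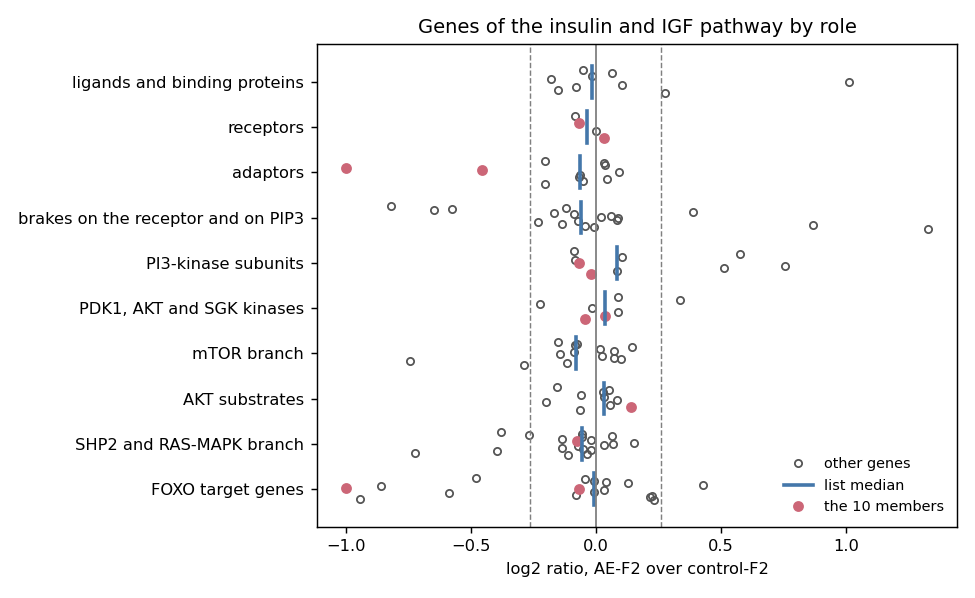
Log2 ratio of the AE-F2 over control-F2 for genes of the insulin and IGF pathway averaging 10 counts or more, 1 row for each list, with members filled in red, other genes as open circles, list medians as blue bars and dashed lines at 1.2-fold. The list medians lie between -0.08 and 0.09, and Irs2 and Irs1 are the 2 lowest points among the adaptors.

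Among the adaptors, 11 of 15 genes passed the minimum, with a median log2 ratio of -0.06. The 2 past 1.2-fold were Irs1 and Irs2, both lower, beside 9.53% of all genes lower and 13.9% higher. Shc1 (log2 ratio 0.03) and Grb2 (0.09), which link receptors to RAS, had intervals that included equality. The related adaptors Irs3 and Irs4, named after their values were seen, had at most 7 counts in either library. None of the 4 receptors passed 1.2-fold. Insrr, the insulin receptor-related receptor, had 674 CPM in control-F2 and 636.5 CPM in AE-F2 (log2 ratio -0.08). Of the 9 ligands and binding proteins that passed, 2 were higher past 1.2-fold, among them Igfbp4, an IGF-binding protein, with 56 counts in control-F2 and 148 in AE-F2. Ins1 and Ins2, whose near-identical sequences can share reads, had log2 ratios of 0.07 and -0.05.

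Of 18 genes that restrain the pathway, 3 were lower and 3 were higher past 1.2-fold, with a median of -0.06. Over all genes 9.53% were lower and 13.9% were higher past that threshold. Socs3, an inhibitor of cytokine and insulin receptor signalling, had 628 counts in control-F2 and 522 in AE-F2 (log2 ratio -0.65, interval -0.82 to -0.48). Trib1, a pseudokinase, had a log2 ratio of -0.58 (-0.68 to -0.47). Socs2 had 316 and 540 counts (0.39, 0.19 to 0.60), and Inpp5d, a lipid phosphatase of blood cells, had 62 and 148 (0.87, 0.44 to 1.32).

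Of the 9 PI3-kinase subunits, 3 were higher past 1.2-fold and 0 were lower. Over all genes 13.9% were higher and 9.53% lower, and this is also the background for the lists that follow. The median log2 ratio of the subunits was 0.09, and it was -0.011 when AE-F2 was thinned to the depth of control-F2. The 3 higher subunits are Pik3cd, Pik3cg and Pik3r5, which are typical of blood cells and are named after their values were seen. They had 68, 37 and 65 counts in control-F2 against 127, 82 and 127 in AE-F2. Pik3r6, another subunit of blood cells in the list and likewise named after its values were seen, had 48 counts in control-F2 and 59 in AE-F2 (log2 ratio -0.09, interval -0.66 to 0.50). Markers of B and plasma cells were higher in the same library, with all 10 past 1.2-fold and a summed level of 15.8 CPM in control-F2 and 398.1 CPM in AE-F2. Of the 8 myeloid markers, 3 were higher past 1.2-fold, with a summed level of 75.06 CPM in control-F2 and 103.8 CPM in AE-F2. Ptprc, found on all white blood cells, had 66 counts in control-F2 and 343 in AE-F2, and Lyz2, a lysozyme, had 112 and 571, whereas the complement gene C1qa had a log2 ratio of -0.25. The part of both lists in these subunits and in Inpp5d was not tested. The kinases PDK1, AKT and SGK had a median of 0.04, with 0 of 7 lower and 1 higher past 1.2-fold (Sgk2, 0.34). The AKT substrates had a median of 0.03 with 0 of 10 past 1.2-fold in either direction. In the mTOR branch 2 of 14 were lower, Eif4ebp1 (log2 ratio -0.74, interval -1.01 to -0.47) and Akt1s1 (-0.29, -0.42 to -0.15), and 0 were higher.

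In the list of SHP2 and the RAS-MAPK branch, 4 of 19 genes were lower past 1.2-fold and 0 were higher, beside 9.53% and 13.9% of all genes. Among the 4 were Dusp4 (log2 ratio -0.72, interval -0.95 to -0.50), Dusp6 (-0.40, -0.59 to -0.20) and Spry4 (-0.38, -0.62 to -0.14). These genes restrain the MAPK signal, and so do others of the list. Spry1, the fourth of the lower genes, was at -0.27 on the log2 scale, and its interval included equality (-0.59 to 0.06). Spry2 (-0.06, -0.38 to 0.28) and Spred1 (0.07, -0.17 to 0.31) did not pass 1.2-fold. Spry1, Spry2 and Spred1 are named after their values were seen. Araf and Mapk3, kinases of the cascade itself, had log2 ratios of -0.11 and 0.07.

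Irs2 is also among the textbook target genes of FOXO factors, of which 17 of 20 passed the minimum. Of these 5 were lower past 1.2-fold and 1 was higher, beside 9.53% and 13.9% of all genes, and the median log2 ratio was -0.01. Beside Irs2, the lower ones were Bcl6 (-0.94, interval -1.35 to -0.55), Klf2 (-0.86, -1.07 to -0.66), Cited2 (-0.59, -0.70 to -0.48) and Txnip (-0.48, -0.52 to -0.44). Txnip is also a glucose-responsive gene and had 542 CPM in control-F2 and 388.5 CPM in AE-F2. Insr (-0.07), Cdkn1b (-0.08) and Sesn3 (-0.01), other members of this list, had intervals that included equality. Pdk4, the one gene higher past 1.2-fold, had 438 counts in control-F2 and 769 in AE-F2. Counting intervals lay below equality for 5 of the 17 genes and above it for 3, beside 13.4% of all genes each way. The 3 above are Pdk4, Bcl2l11 (0.235) and Ccng2 (0.227), which are named after their values were seen.

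Other gene groups differed between these libraries alongside Irs1 and Irs2. Immediate early genes, which respond within minutes to activity or handling, had a median log2 ratio of -0.99. Of these, 10 of 11 were lower past 1.2-fold, beside 9.53% of all genes lower and 13.9% higher. Their summed level was 4155 CPM in control-F2 and 2136 CPM in AE-F2. The list of acinar genes had a median of -0.39 with 10 of 13 lower past 1.2-fold, while Amy2a5, a pancreatic amylase, was higher (log2 ratio 0.63) and the summed level had a log2 ratio of -0.18. The α-cell list had a median of 0.12 with Gcg at 0.46, and the mesenchymal list one of 0.98 with 6 of 9 higher and 1 lower (Acta2, -0.31) past 1.2-fold (252.1 CPM summed in control-F2 and 309.0 in AE-F2). The β-cell list had a median of -0.10, with 10 of 12 genes lower by more than their counting error and 1 of these past 1.2-fold (Slc2a2, -0.28, the glucose transporter of β-cells), beside 13.4% of all genes with an interval below equality. The other 2, Iapp (0.23) and Ins1 (0.07), were higher by more than their counting error. Its summed level, most of which is Ins1 and Ins2, was 204000 CPM in control-F2 and 204300 CPM in AE-F2. The endothelial list had a median of -0.05 with 0 of 8 past 1.2-fold. The duct, myeloid and Schwann lists had medians of 0.12, 0.14 and 0.34, with 2 of 6, 3 of 8 and 2 of 3 higher and 1, 0 and 0 lower past 1.2-fold. All 3 Schwann genes had intervals that included equality. The list of δ and PP cells had a median of 0.00. The part of each in the values of Irs1 and Irs2 was not tested. In whole islets, fewer cells of a type and less RNA per cell cannot be told apart.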

How the data were processed

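Islet RNA was enriched with Oligo (dT) beads, made into libraries with an NEBNext Ultra kit and sequenced. According to the methods, filtered reads were mapped with HISAT2, whereas the submitters' processing notes list Bowtie2, RSEM and DESeq2. The build, the annotation and the role of each tool are not given in the sources used here. The authors deposited a file of estimated counts for each library, not scaled for depth or length. Of all 21899 values in a file, zeros included, 8.56% (control-F2) and 9.28% (AE-F2) were not exactly whole as written, with no tolerance, whereas the 10 members had whole numbers.

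Counts were rounded. A reference table paired 21806 of 21899 gene IDs with symbols, and GENCODE M21 exons gave lengths and overlaps. TMM factors (1.001 for control-F2 and 0.9986 for AE-F2) were computed with edgeR 4.0.16 in R 4.3.3, without a model, since 1 library per group leaves no residual degrees of freedom. Intervals on ratios are Clopper-Pearson intervals, computed on how a gene's counts divide between the libraries (scipy 1.17.1), and those on odds ratios are exact and conditional. PCR copies are not independent molecules, so they cover counting error only. The functions were tested on simulated libraries. Members, lists and settings were chosen with earlier results of these data known. Besides the members, genes were named if they were among the 3 of a list with the highest mean CPM, or among the 5 largest ratios past 1.2-fold with an interval that excludes equality and a mean of at least 100 counts. Not all of these are printed. A comparison of the members' proteins had been planned and was not made here.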

Additional observations from a re-analysis of the deposited data

How the results depend on the processing

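Except for Akt1, the log2 ratios of the 10 genes kept their sign under each other scaling and a pseudocount of 5. They also did so with trends of GC content and length removed and with the AE-F2 library thinned. The scalings were library totals, DESeq2 size factors (version 1.42.0), and totals without the 10 most abundant genes or without mitochondrial genes, Ins1 and Ins2. Akt1 ranged from -0.05 to 0.03 around equality. Minimum means of 1 or 50 counts only choose the genes compared and cannot change the ratio of a member. Irs2 ranged from -1.003 to -0.917 and Irs1 from -0.46 to -0.41. At thresholds of 1.5-fold and 2-fold the number of lower members was 1 and 0, since Irs2 lies just short of 2-fold. Over all genes, 299 were lower and 823 higher past 1.5-fold and 89 lower and 430 higher past 2-fold, against 1298 and 1892 past 1.2-fold. With a minimum mean of 1 count 2063 were lower and 3088 higher past 1.2-fold, and with a minimum of 50 counts 966 were higher. The median of the ligands and binding proteins was 0.067 with a minimum of 1 count, which admits more genes, against -0.015 with 10. List medians near 0 changed sign under some settings. With thinning these were the PI3-kinase subunits (-0.011), AKT substrates (-0.001) and adaptors (0.004). With GC and length trends removed they were the brakes (0.002) and receptors (0.025). With totals without the 10 most abundant genes they were the FOXO targets (0.008) and ligands (0.001). No paired analysis was possible because the libraries share no replicate number, and with 1 library per group no replicate could be left out. The lack of a shared number comes from analysing replicate 1 of control-F2 and replicate 4 of AE-F2, not from the labels of all samples. The depth limits Irs1 most, whose interval spans 1.16-fold to 1.62-fold.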
